A study of Mus musculus with 6 samples.

Results

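Lysosomal genes were compared between GC-2 spd(ts) cells exposed to 120 µM bisphenol A (BPA) and cells given its solvent. They were 36 genes chosen by symbol. They encode 9 lysosomal proteases, 6 glycosidases, 3 other proteins that handle lipids, 7 membrane proteins, 8 parts of the proton pump and 3 transcription factors. Of these, 34 were found among the 22127 genes of the mRNA table, and all 34 had at least 10 reads in both libraries together. Ctsf and Ctss were not analysed here. GC-2 spd(ts) is 1 line derived from mouse spermatocytes, immortal through a temperature-sensitive p53 and the large T antigen of a virus, so the values describe that line and not the testis. Both groups were kept for 12 h without serum and then for 48 h in complete medium, with 120 µM BPA in the exposed group and 0.1% dimethyl sulfoxide in the control group. Each group had 1 mRNA library and 1 library of circular RNA, made from the same RNA. With 1 library a group there is no replicate error, so no test was made, and the intervals given cover counting error only.

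Lysosomes are acidic compartments in which soluble hydrolases break down proteins, glycans and lipids delivered by endocytosis and autophagy. A proton pump, the V-ATPase, acidifies the lumen with a membrane sector (V0) that carries protons and a cytosolic sector (V1) that hydrolyses ATP. The related transcription factors TFEB, TFE3 and MITF can switch on many lysosomal genes through an E-box with the core CACGTG in their promoters, known as the CLEAR element. In the testis, Sertoli cells use their lysosomes to degrade the cytoplasm that maturing germ cells shed.

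The promoters of the lysosomal genes often held that E-box. RefSeq promoter windows on GRCm38.p6, which run from 250 bases before to 50 bases after an annotated start, were matched by symbol for 31 of the 36 genes. Ctsb, Npc1, Atp6v1b2, Atp6v1c1 and Atp6v1h had no entry. CACGTG, which reads the same on both strands, was found in 13 of the 31 genes (41.9%), against 13.0% of 6636 genes with at least 1000 reads and 11.5% of 10519 genes with at least 10 reads. The 8-base form TCACGTGA, which contains that core, was found in 8 of the 31 (25.8%), against 2.68% and 2.12%. The full 10-base CLEAR palindrome was in none of the 31 genes, and in 1.04% of the genes with at least 1000 reads. A match is a description of these letters and not a measured binding site. Sites of the genes analysed are printed to show their flanks, with CACGTG in capitals and 12 bases on either side. There is 1 for each gene other than Lamp1. Mcoln1, Ctsd and Clcn7 hold a site of each form, and their TCACGTGA site was printed. That form is thus over-represented among the printed sites, and their flanks look more alike than those of all sites.
Ctsl: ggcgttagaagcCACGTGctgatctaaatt
Ctsa: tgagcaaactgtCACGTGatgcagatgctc
Gaa: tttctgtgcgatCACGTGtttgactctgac
Glb1: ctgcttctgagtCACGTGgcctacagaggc
Mcoln1: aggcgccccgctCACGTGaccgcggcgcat
Ctsd: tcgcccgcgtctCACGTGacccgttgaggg
Gla: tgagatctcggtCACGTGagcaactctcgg
Atp6v1a: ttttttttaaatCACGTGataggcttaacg
Clcn7: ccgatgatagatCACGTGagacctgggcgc
Atp6v0d1: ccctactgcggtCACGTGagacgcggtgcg
Atp6v0e: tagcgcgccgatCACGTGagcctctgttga

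The protease sites lie at chr13:64370739-64370768 (Ctsl, minus strand), chr2:164833749-164833778 (Ctsa, plus strand) and chr7:142387908-142387937 (Ctsd, minus strand). Those of the glycosidases lie at chr11:119267811-119267840 (Gaa, plus strand), chr9:114401018-114401047 (Glb1, plus strand) and chrX:134601182-134601211 (Gla, minus strand). Mcoln1 has its site at chr8:3500462-3500491 (plus strand) and Clcn7 at chr17:25133386-25133415 (plus strand). The pump sites lie at chr16:44139373-44139402 (Atp6v1a, minus strand), chr8:105566050-105566079 (Atp6v0d1, minus strand) and chr17:26676387-26676416 (Atp6v0e, plus strand). Lamp1 and Neu1 are shown over the 250 bases before their starts as the extremes. Lamp1 (chr8:13158911-13159160, plus strand) holds 4 E-boxes, in capitals, and Neu1 (chr17:34931003-34931252, plus strand) holds none.
Lamp1: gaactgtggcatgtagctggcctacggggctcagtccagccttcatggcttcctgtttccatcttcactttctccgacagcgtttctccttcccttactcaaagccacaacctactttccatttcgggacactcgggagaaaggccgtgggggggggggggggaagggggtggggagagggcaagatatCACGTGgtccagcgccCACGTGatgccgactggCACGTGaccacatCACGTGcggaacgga
Neu1: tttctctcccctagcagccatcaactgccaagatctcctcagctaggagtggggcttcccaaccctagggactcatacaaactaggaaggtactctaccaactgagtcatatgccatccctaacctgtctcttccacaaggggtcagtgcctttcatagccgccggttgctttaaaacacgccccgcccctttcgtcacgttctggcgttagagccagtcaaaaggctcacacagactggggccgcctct

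In the BPA library the lysosomal mRNAs were a little higher as a group. The genes, lists and thresholds were chosen with earlier results of these data known. The shares of all genes beside them therefore describe and do not test. Of the 34 genes 32 had a log2 ratio of BPA over control above 0, where 51.9% of all 16870 genes with at least 10 reads did. The ratio was computed from the deposited normalised reads with 1 added. Their median log2 ratio was 0.27, against 0.02 over all genes. At least 1.2-fold higher were 17 of 34 genes, against 27.6% of all genes, and at least 1.2-fold lower were 0, against 22.9%. The counting interval lay above equality for 27 of 34 genes and below it for 2, against 28.2% and 26.5% of all genes. No gene of the group was 2-fold higher or lower, where 6.88% and 4.61% of all genes were. Ratios of poorly counted genes scatter widely, so the same counts were made over genes with at least 1000 reads in both libraries together. There 29 of 31 lysosomal genes were above 0 and 15 were at least 1.2-fold higher, against 48.4% and 16.9% of 8628 genes. Their median was 0.26 where that of all these genes was -0.01, and 0 of 31 were at least 1.2-fold lower, against 17% of these genes. The interval lay above equality for 26 of the 31 and below it for 2, against 33.7% and 38% of these genes. None of the 31 was 1.5-fold higher or lower, where 3.93% and 4.2% of these genes were, and 1.36% and 0.985% were 2-fold higher or lower. Together the 34 genes took 261070 reads with BPA and 208209 in control, 0.789% and 0.644% of all reads.

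**Figure D1:**
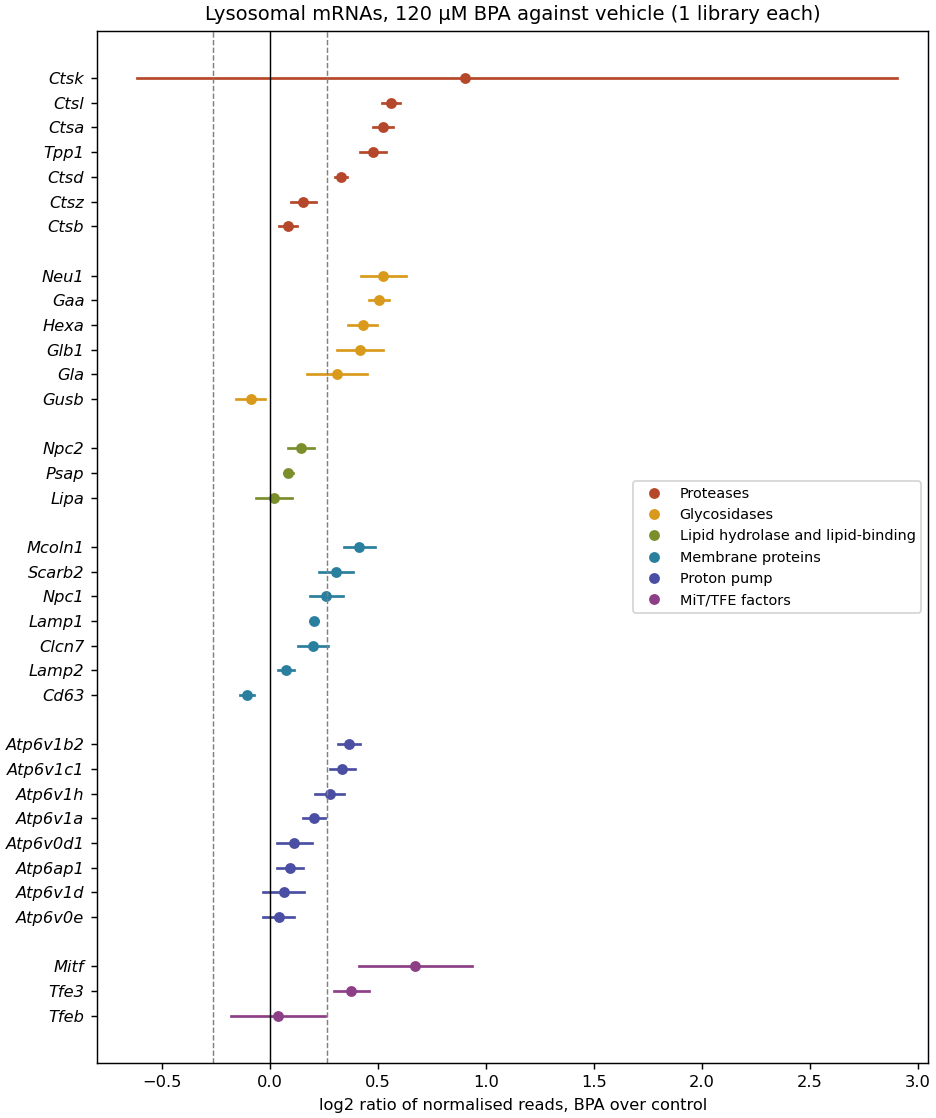
Log2 ratio of normalised reads, BPA over control, for each of the 34 lysosomal genes by role (points), with the exact 95% counting interval (bars) and dashed lines at 1.2-fold. All points but Gusb at -0.09 and Cd63 at -0.10 lie right of 0, and none lies left of the lower dashed line.

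The mRNA libraries held 33071378 reads with BPA and 32312872 in control, and a count of 0 allows up to 0.0907 CPM (reads scaled to library size) with BPA and 0.0928 CPM in control. The authors' scaling multiplied reads by 0.962 in the BPA library and by 1.04 in the control library, so the ratios are slightly smaller than those of the reads. The cells were checked against markers. Meiotic markers were at or near 0, with Sycp3 at 0 reads with BPA and 6 in control, Meiob at 0 with BPA and 3 in control and Ddx4 at 9 with BPA and 0 in control. Of the 4 analysed only Hspa2 passed 10 reads, with 588 reads with BPA and 411 in control. The other 8 of the 12 spermatocyte markers were not analysed here. Macrophages are rich in lysosomes, and 6 of their 10 markers were analysed. They summed to 8.32 CPM with BPA and 5.51 CPM in control, most of it Cd14 with 231 reads with BPA and 161 in control. The other 5 had few reads and differed in direction. Cd74 had 22 reads with BPA and 2 in control, Lyz2 had 11 with BPA and 5 in control, and Itgam had 6 with BPA and 0 in control. Csf1r had 5 reads with BPA and 7 in control, and Ptprc 0 with BPA and 3 in control. The Sertoli markers analysed, 8 of 10, summed to 157 CPM with BPA and 137 CPM in control. The Leydig markers, 3 of 7, summed to 70.5 CPM with BPA and 55.7 CPM in control. Nr5a1 held 2242 of their 2333 reads with BPA and 1731 of 1800 in control. The osteoclast markers, 4 of 7, summed to 25.9 CPM with BPA and 29.0 CPM in control. Nfatc1 held 842 of their 856 reads with BPA and 923 of 936 in control. The other osteoclast markers had few reads and differed in direction. All 8 measured fibroblast markers were at least 1.2-fold lower with BPA, where 22.9% of all genes were. The 9 analysed summed to 2120 CPM with BPA and 4339 CPM in control. Col1a1 held 39365 of their 70113 reads with BPA and 79234 of 140215 in control, and Col1a2 held 21120 with BPA and 41750 in control. Dcn, analysed but under 10 reads, went the other way, with 8 reads with BPA and 0 in control. The part of these markers in the lysosomal ratios was not tested. In bulk RNA a change in the number of cells of a kind cannot be told apart from a change in RNA per cell.

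Proteases were mostly higher with BPA. Of 7 measured, all were above 0 and 5 were at least 1.2-fold higher, where 51.9% and 27.6% of all genes were. The median log2 ratio of the proteases was 0.48. Without the poorly counted Ctsk it was 0.40 over 6, where the median of the glycosidases was 0.42. Ctsl, the cysteine endopeptidase cathepsin L (chromosome 13, 64359337 to 64370890, minus strand), had 11646 reads with BPA and 7309 in control, a log2 ratio of 0.56 (95% counting interval 0.52 to 0.60). Ctsa, a serine carboxypeptidase that also protects the glycosidases Neu1 and Glb1 (chromosome 2, 164832873 to 164841032, plus strand), had 9620 reads with BPA and 6200 in control, a ratio of 0.52 (0.48 to 0.57). These genes encode quite different enzymes, and so does Tpp1, which removes tripeptides from protein ends (chromosome 7, 105744811 to 105752235, minus strand). It had 5765 reads with BPA and 3835 in control, a ratio of 0.48 (0.42 to 0.54). Ctsd, the main aspartic protease of the lysosome (chromosome 7, 142375911 to 142388038, minus strand), had 24499 reads with BPA and 18024 in control, a ratio of 0.33 (0.30 to 0.36).

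Among the other cysteine cathepsins, Ctsb and Ctsz were closer to equality than Ctsl. Ctsb, the abundant cathepsin B, had 9828 reads with BPA and 8588 in control, a ratio of 0.08 (0.04 to 0.12). Ctsz, a carboxypeptidase, had 5093 reads with BPA and 4232 in control, a ratio of 0.16 (0.10 to 0.21). So Ctsb and Ctsl, which had similar read numbers and belong to one enzyme family, had intervals that did not overlap. At this depth the intervals are narrow, and they cover counting error only. Ctsk, the collagen-degrading cathepsin K of osteoclasts, was barely detected, with 11 reads with BPA and 5 in control. Its ratio of 0.90 was the highest of all 34 genes, with an interval, -0.62 to 2.90, that spans equality.

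Glycosidases were higher with BPA too, with 1 exception. Of 6 measured, 5 were above 0 and the same 5 were at least 1.2-fold higher, where 51.9% and 27.6% of all genes were. The median of the 6 was 0.42. Neu1, the sialidase that acts in a complex with Ctsa and Glb1 (chromosome 17, 34931253 to 34935953, plus strand), had 1952 reads with BPA and 1255 in control, a ratio of 0.53 (0.42 to 0.63). Gaa, the acid alpha-glucosidase that degrades glycogen (chromosome 11, 119267887 to 119285454, plus strand), had 9507 reads with BPA and 6193 in control, a ratio of 0.51 (0.46 to 0.55). All 3 partners of the sialidase complex were thus higher, since Glb1, the acid beta-galactosidase often stained in senescent cells (chromosome 9, 114401076 to 114474898, plus strand), had 1687 reads with BPA and 1169 in control, a ratio of 0.42 (0.31 to 0.53). Hexa, the alpha subunit of the hexosaminidase that degrades the ganglioside GM2, had 4438 reads with BPA and 3048 in control, at a ratio of 0.43 (0.36 to 0.50). Gla, the alpha-galactosidase deficient in Fabry disease, had 998 reads with BPA and 744 in control, at a ratio of 0.31 (0.17 to 0.45). The exception was Gusb, the beta-glucuronidase, with 3568 reads with BPA and 3510 in control. Scaling put its ratio at -0.09 (-0.16 to -0.02).

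The genes grouped here as lipid handling hardly differed. Hexa, which also acts on a lipid, was counted with the glycosidases, at 0.43. None of the 3 in the lipid group was 1.2-fold higher or lower, where 27.6% and 22.9% of all genes were. Their median was 0.09. Psap, whose product is cut into saposins that present sphingolipids to their hydrolases, had 35221 reads with BPA and 30719 in control, a ratio of 0.09 (0.06 to 0.11). Lipa, the acid lipase that frees cholesterol from its esters, had 2505 reads with BPA and 2288 in control and an interval that spans equality, -0.06 to 0.10. Npc2, the soluble cholesterol carrier, had 4779 reads with BPA and 4003 in control, at a ratio of 0.14 (0.08 to 0.20). Its membrane partner Npc1, which takes cholesterol over from Npc2, had 3189 reads with BPA and 2462 in control, a ratio of 0.26 (0.19 to 0.34), just under 1.2-fold.

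Membrane proteins were spread between these groups. Of 7, with a median of 0.20, 6 were above 0 and 2 at least 1.2-fold higher, where 51.9% and 27.6% of all genes were. Mcoln1, the calcium channel that releases calcium from lysosomes and through calcineurin can activate TFEB (chromosome 8, 3500457 to 3515232, plus strand), was the highest, with 3971 reads with BPA and 2756 in control, a ratio of 0.42 (0.34 to 0.49). Scarb2, the receptor that carries beta-glucocerebrosidase to lysosomes, had 3139 reads with BPA and 2348 in control, at a ratio of 0.31 (0.23 to 0.39). The structural glycoproteins of the lysosomal membrane differed less. Lamp1 had 46194 reads with BPA and 37101 in control, a ratio of 0.20 (0.18 to 0.22), and Lamp2, needed for autophagosome clearance, had 13183 with BPA and 11588 in control, a ratio of 0.07 (0.04 to 0.11). Clcn7, the chloride-proton exchanger, had 3846 reads with BPA and 3101 in control, at a ratio of 0.20 (0.13 to 0.27). Cd63, a tetraspanin of late endosomes and exosomes, was the lowest of all 34 genes, with 15365 reads with BPA and 15293 in control, at a ratio of -0.10 (-0.14 to -0.07).

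All 8 genes of the proton pump were above 0, with a median of 0.16, but only 3 were at least 1.2-fold higher, where 27.6% of all genes were. The 3 encode parts of the V1 sector. Atp6v1b2, the B subunit of the catalytic ring, had 7432 reads with BPA and 5342 in control, a ratio of 0.36 (0.31 to 0.42). Atp6v1c1, which joins V1 to V0, had 5660 reads with BPA and 4149 in control, at a ratio of 0.34 (0.28 to 0.39). Atp6v1h, the subunit H that regulates the coupled pump (chromosome 1, 5070018 to 5162529, plus strand), had 4005 reads with BPA and 3060 in control, at a ratio of 0.28 (0.21 to 0.35). The catalytic subunit Atp6v1a had 7368 reads with BPA and 5919 in control, a ratio of 0.20 (0.15 to 0.25).

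The remaining pump genes were near equality. Atp6v1d, of the central stalk, had 1950 reads with BPA and 1726 in control, a ratio of 0.06 (-0.03 to 0.16). In the V0 sector Atp6v0d1 had 2829 reads with BPA and 2419 in control, a ratio of 0.11 (0.04 to 0.19), and Atp6v0e had 3334 with BPA and 2999 in control, a ratio of 0.04 (-0.03 to 0.11). The accessory protein Atp6ap1 had 4835 reads with BPA and 4195 in control, a ratio of 0.09 (0.03 to 0.15). When the pump genes outside the group were added, in a split made after the values were seen, 7 of 10 measured V1 genes were at least 1.2-fold higher and 0 lower, with a median of 0.31. Of 9 measured V0 genes 2 were higher and 2 lower, with a median of 0.11. Of all genes 27.6% were higher and 22.9% lower by that fold.

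The factors that regulate these genes differed in level. Tfe3 (chromosome X, 7762560 to 7775202, plus strand) had 2956 reads with BPA and 2107 in control, a ratio of 0.38 (0.30 to 0.46). Mitf, the melanocyte and osteoclast member of the family (chromosome 6, 97807052 to 98021349, plus strand), had 331 reads with BPA and 192 in control, at a ratio of 0.67 (0.41 to 0.94). Tfeb itself (chromosome 17, 47737030 to 47792419, plus strand) had 366 reads with BPA and 330 in control, and its interval spans equality, -0.18 to 0.26. Mitf and the poorly counted Ctsk were the 2 genes at least 1.5-fold higher and 0 were 1.5-fold lower, where 13.3% and 10.2% of all genes with at least 10 reads were. Among melanocyte markers only Pmel was analysed, with 26 reads with BPA and 19 in control. These factors are controlled largely by their passage into the nucleus, which mRNA does not measure.

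Per kilobase of principal transcript, the lysosomal mRNAs spanned a wide range of levels, and their order was much the same with and without BPA. Lamp1 was the most abundant, at 627 RPKM (reads per kilobase, scaled to library size) with BPA and 515 RPKM in control. Cd63 followed at 419 RPKM with BPA and 427 in control, and Psap at 401 with BPA and 358 in control. Ctsd stood at 348 RPKM with BPA and 262 in control, and Lamp2 at 111 with BPA and 99.5 in control. These 5 were the highest in both libraries, and Cd63 and Psap lay closer together with BPA. The lowest were Ctsk at 0.22 RPKM with BPA and 0.10 in control, Mitf at 2.05 with BPA and 1.22 in control and Tfeb at 4.82 with BPA and 4.45 in control. Tfe3 was the most abundant factor, at 27.3 RPKM with BPA and 19.9 in control. Ctsa stood at rank 8 with BPA and rank 12 in control, and Ctsl at rank 16 with BPA and rank 20 in control. With 1 library each, no spread was at hand to say which neighbours in this order differ. Lengths were those of the longest principal transcript, 6168 bases for Ctsl, so a level would be higher if a shorter transcript was present. Which transcripts the authors counted is unknown here. With the union of all annotated exons as length Lamp1 stayed first, Ctsl stood at rank 9 with BPA and Lamp2 at rank 14.

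**Figure D2:**
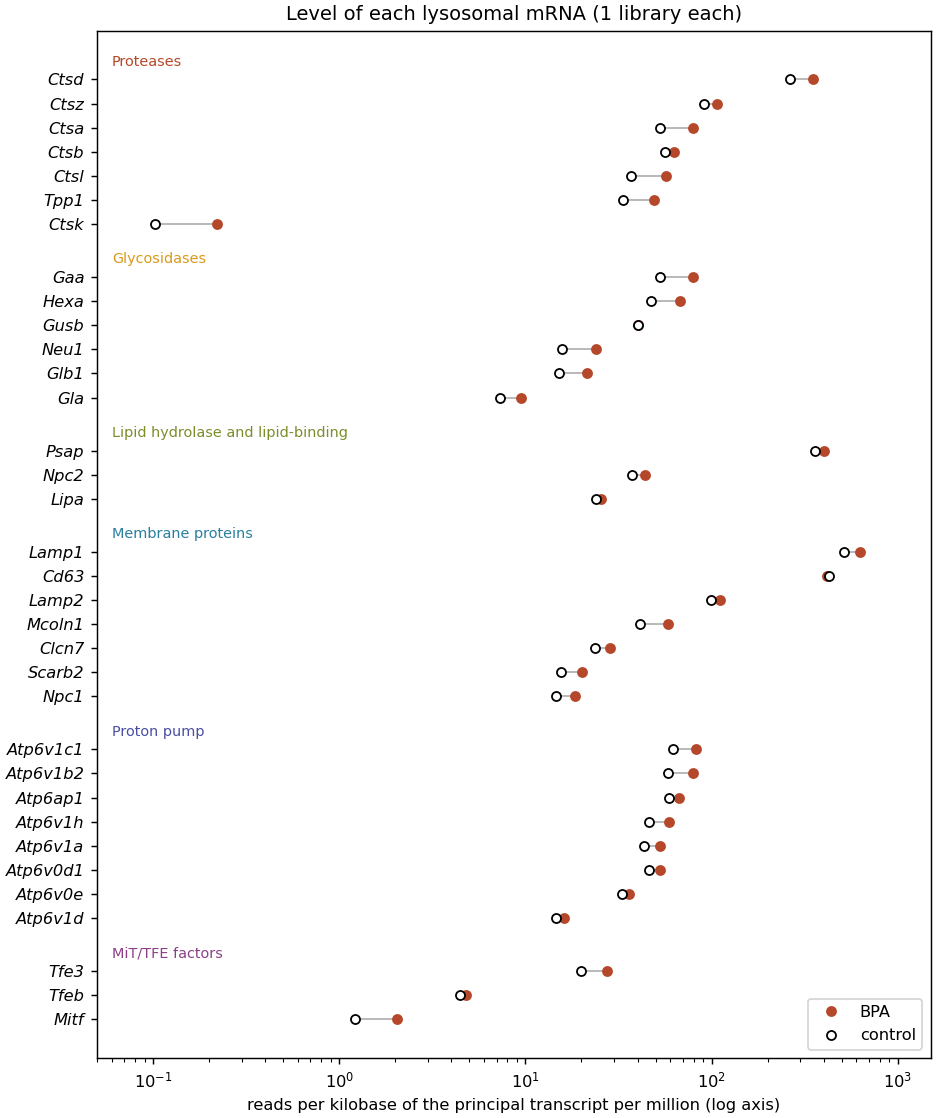
Level of each lysosomal mRNA in RPKM over the principal transcript on a log axis, with BPA (filled) and in control (open), 1 library each. Lamp1 is highest at 627 with BPA and 515 in control, Ctsk is lowest at 0.22 with BPA and 0.10 in control, and the shift between the filled and open points is small beside the range between genes.

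The E-box and the ratios can be set side by side. The 12 analysed genes with CACGTG in a promoter window had a median log2 ratio of 0.32, from 0.04 for Atp6v0e to 0.56 for Ctsl, and 7 of them were at least 1.2-fold higher. The 17 with a window and no CACGTG had a median of 0.14, from -0.10 to 0.90, and 7 of them were at least 1.2-fold higher. The ranges overlap almost fully. Lamp1, with 4 E-boxes at 61, 45, 28 and 15 bases before the start, was at 0.20, while Neu1, 1 of the 17 with none, was at 0.53. These are single genes, and their order is opposite to that of the medians. Among all genes with at least 1000 reads and a window, the median was 0.02 with CACGTG and -0.01 without it. The share at least 1.2-fold higher was 18.6% with it and 16.9% without it. None of the 3 factors and none of the 3 lipid genes held the E-box, while 4 of 8 proteases, 3 of 6 glycosidases, 3 of 6 membrane proteins and 3 of 5 pump genes with a window did.

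**Figure D3:**
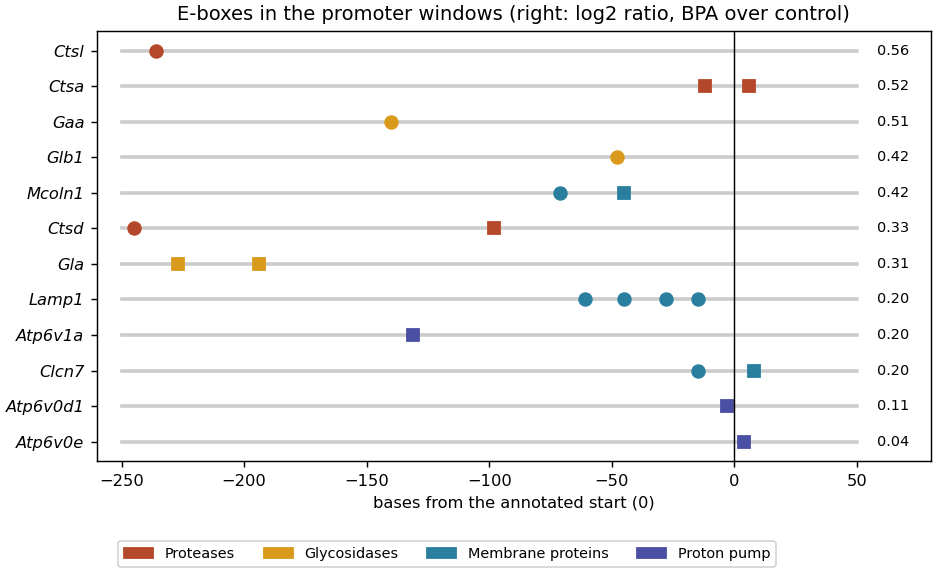
E-boxes in the promoter windows of the 12 analysed lysosomal genes that hold one, by distance in bases from the annotated start, with squares for TCACGTGA, circles for other CACGTG sites, colours for the role and the log2 ratio of BPA over control at the right. Genes run from Ctsl at 0.56 to Atp6v0e at 0.04. Sites within 15 bases of the start lie in Ctsa near the top of the order, and otherwise in Lamp1, Clcn7, Atp6v0d1 and Atp6v0e in its lower part.

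Counts could be shared with overlapping genes for 10 of the 34. On the same strand, Ctsd overlaps Gm49369, with 21 reads with BPA and 0 in control, Glb1 overlaps Tmppe, with 227 reads with BPA and 256 in control, and Ctsl overlaps Gm49230, not analysed here. The other 7, Ctsa, Ctsb, Ctsz, Lamp1, Npc1, Hexa and Atp6v1h, overlap a gene on the opposite strand only, and the libraries were strand-specific per the labels' protocols, though whether the counting used strand is unknown here. Of the 24 genes without overlap, with a median of 0.20, 22 were above 0 and 11 were at least 1.2-fold higher, where 51.9% and 27.6% of all genes were. The authors' deposited p-values come from a comparison of 1 library with 1 library, so they are not quoted here.

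**Figure D4:**
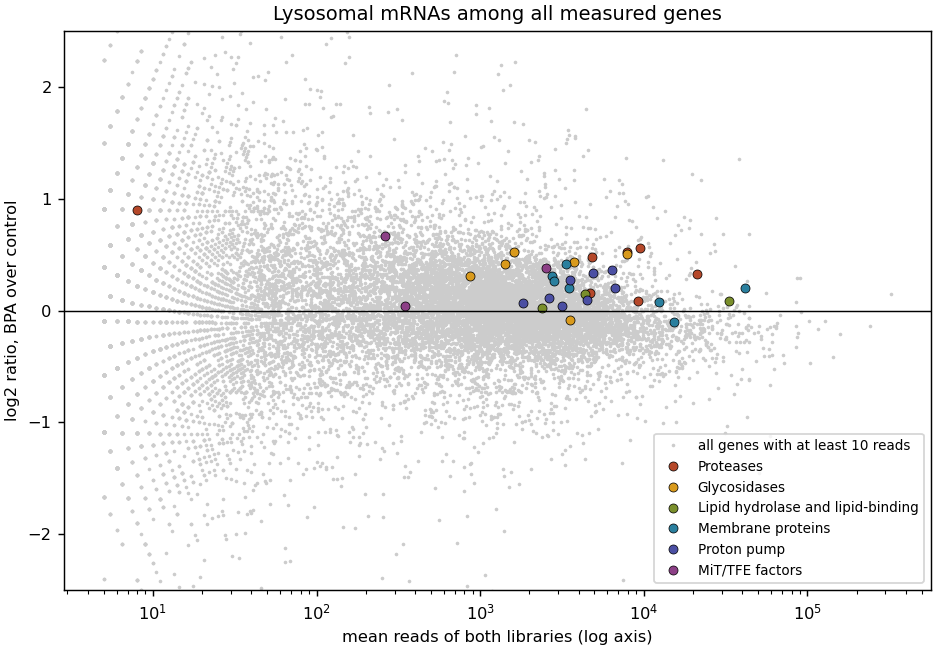
Log2 ratio of BPA over control against the mean reads of both libraries (log axis) for the 34 lysosomal genes, coloured by role, and all 16870 genes with at least 10 reads in grey, where points beyond 2.5 in either direction are not drawn. The lysosomal genes, 31 of them with at least 1000 reads in both libraries together, lie mostly in the upper part of the grey cloud, and none lies at its lower edge.

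Other genes of the lysosome were compared through 7 lists that hold none of the 34, and the highest and lowest genes named come from those whose larger count reached 100 reads. Over all genes with at least 10 reads, 51.9% were above 0, 27.6% were at least 1.2-fold higher and 22.9% lower. Other hydrolases were also mostly higher. Of 39 measured, 28 were above 0, 17 were at least 1.2-fold higher and 3 lower, with a median of 0.23. The highest were Ctso, a cysteine cathepsin, with 227 reads with BPA and 86 in control, a ratio of 1.28 (0.92 to 1.66), and the hyaluronidase Hyal1, with 286 reads with BPA and 115 in control, 2.29-fold higher, whose exons overlap those of Hyal3 and Naa80. The lowest were Prcp, a carboxypeptidase, with 579 reads with BPA and 841 in control, at a ratio of -0.65 (-0.81 to -0.50), and Hyal2 with 425 reads with BPA and 584 in control and -0.57 (-0.75 to -0.39).

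Of 28 other membrane proteins 22 were above 0, 14 were at least 1.2-fold higher and 2 lower, with a median of 0.27. The highest were the peptide transporter Abcb9, with 126 reads with BPA and 41 in control, at a ratio of 1.49 (0.99 to 2.05), and the ion channel Tmem175, with 890 reads with BPA and 321 in control and 1.36 (1.17 to 1.55). The lowest were Tpcn2, a channel of the endolysosomal membrane, with 842 reads with BPA and 1074 in control and -0.46 (-0.59 to -0.33), and the nucleoside transporter Slc29a3 at -0.21 (-0.35 to -0.07). Of 17 other pump genes and assembly factors 12 were above 0, 9 at least 1.2-fold higher and 2 lower, with a median of 0.27. Vma21, which helps to assemble V0, had 2219 reads with BPA and 521 in control, a ratio of 1.98 (1.84 to 2.12). Rnasek, a protein bound to the pump, had 1017 reads with BPA and 242 in control and 1.96 (1.76 to 2.17), and its exons overlap those of Gm21988. The proton-carrying subunit Atp6v0c was lower, with 7577 reads with BPA and 9782 in control and -0.48 (-0.52 to -0.44), and so was Atp6v0a2, with 2946 reads with BPA and 3462 in control and -0.34 (-0.42 to -0.27).

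Genes that bring enzymes to the lysosome were evenly split. Of 23 sorting genes 12 were above 0, 3 were at least 1.2-fold higher and 4 lower, with a median of 0.01. Gnptab and Nagpa, which help to make the mannose 6-phosphate tag on hydrolases, were the lowest. Gnptab was at -0.50 (-0.60 to -0.41) from 1517 reads with BPA and 1991 in control. Nagpa was at -0.44 (-0.57 to -0.31) from 885 with BPA and 1112 in control. The tagging genes did not all go that way. Gnptg, which encodes another subunit of the Gnptab enzyme, had 1090 reads with BPA and 767 in control, a ratio of 0.40 (0.26 to 0.53). Sort1, a receptor that carries hydrolases, had 387 reads with BPA and 259 in control, at a ratio of 0.47 (0.24 to 0.70), and Ap3m1, an adaptor subunit, 3012 reads with BPA and 2049 in control and 0.44 (0.36 to 0.53). Of 25 nutrient-sensing genes 19 were above 0, 7 were at least 1.2-fold higher and 1 lower, with a median of 0.11. The share of higher genes there was near the 27.6% of all genes. Lamtor2, of the Ragulator complex that anchors mTORC1 on lysosomes, was at 0.47 (0.36 to 0.58), and of the catalytic subunits of calcineurin Ppp3ca was at 0.46 (0.38 to 0.53) and Ppp3cb at -0.44 (-0.54 to -0.34). Tsc2, which restrains mTORC1, was at -0.13 (-0.19 to -0.07).

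Of 20 genes of lysosome fusion and positioning 15 were above 0, 7 were at least 1.2-fold higher and 4 lower, with a median of 0.20. The tethering subunits Vps39 and Vps18 were at 0.43 (0.33 to 0.54) and 0.41 (0.31 to 0.51). Rab7, the small GTPase of late endosomes, had 10417 reads with BPA and 13942 in control, a ratio of -0.53 (-0.57 to -0.50), and Snapin was at -0.37 (-0.50 to -0.25). Of 8 protease inhibitors and damage sensors 3 were at least 1.2-fold higher and 1 lower, with a median of 0.16. Lgals3, a galectin recruited to damaged lysosomes, had 13171 reads with BPA and 8706 in control, at a ratio of 0.49 (0.45 to 0.52), and the inhibitor Serpinb6a was at 0.28 (0.24 to 0.33). Trim16, a ligase recruited to damaged lysosomes, had 930 reads with BPA and 2520 in control, a ratio of -1.55 (-1.66 to -1.44), and Cst3, the secreted cystatin C, was at -0.12 (-0.18 to -0.06). Over the 7 lists, with a median of 0.17, 60 of 160 measured genes were at least 1.2-fold higher and 17 lower. Of all genes 27.6% were higher and 22.9% lower by that fold.

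**Figure D5:**
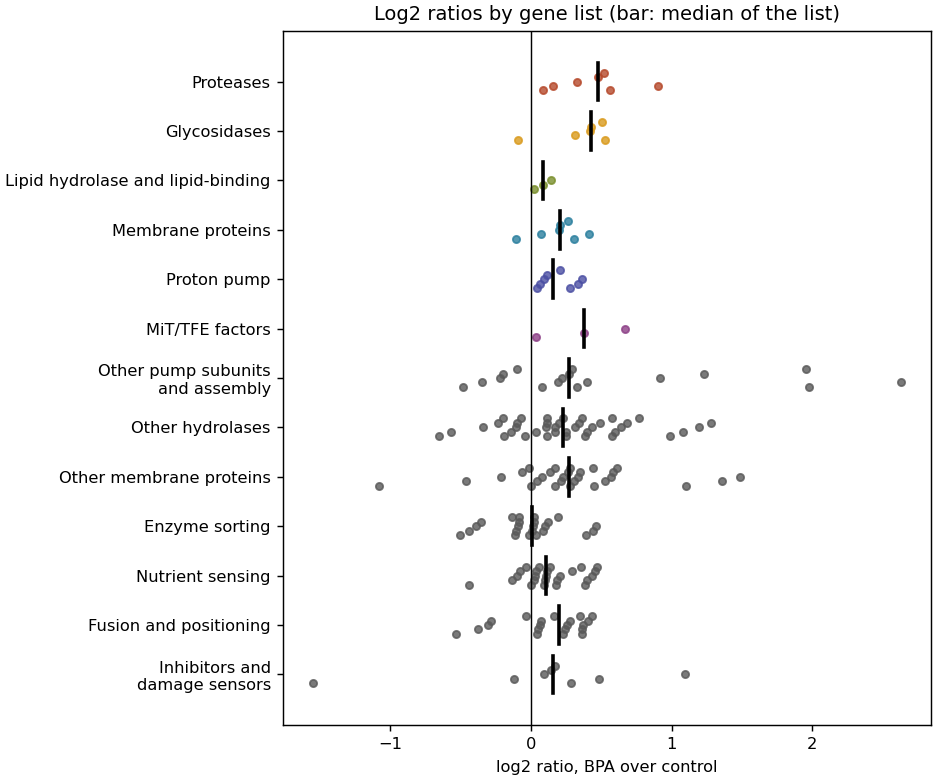
Log2 ratio of BPA over control of each measured gene (points) in the 6 role groups (coloured) and the 7 other lists (grey), with the median of each as a bar. The median is 0.48 for proteases (0.40 without Ctsk), 0.42 for glycosidases and 0.01 for enzyme sorting, and the other lists spread wider than the role groups.

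Circular RNA from the same RNA, after linear RNA was digested with RNase R, gave a second readout. In circRNAs a downstream exon end is joined back to an upstream exon start. Of the 34 genes 15 had at least 1 circRNA, 40 in all, with 104 back-splice events with BPA and 45 in control, among 17586 events in all with BPA and 12909 in control. Most rested on few events. Atp6v1h was the exception, with 14 circRNAs and 52 events with BPA against 17 in control. By share of all events the log2 ratio of its sum was 1.14 (0.35 to 2.05), where that of its mRNA was 0.28. Of the 3 lysosomal genes with at least 10 events it alone was at least 2-fold higher, as 13.1% of 688 host genes with that many events were, and the interval lay above equality in 6.54% of them. At least 2-fold lower were 0 of the 3, against 11.3% of the 688. Atp6v1c1 had 17 events with BPA and 11 in control, a ratio of 0.16 with an interval that spans equality and reaches 1.42. Glb1 had 9 events with BPA and 5 in control, a ratio of 0.34 (-1.33 to 2.33), so a difference was not detectable for either at this depth. Ctsk, with 11 linear reads with BPA and 5 in control, still had 3 circRNAs with 4 events with BPA and 2 in control.

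The circRNAs of Atp6v1h ended at annotated exon borders of its 14-exon transcript, within the coding part. Those that start at exon 3 made up most events. The junctions of the 4 with the most events with BPA are printed because they are the letters that tell these molecules from the mRNA, with 20 bases on either side and the 4 bases next to the junction on each side in capitals. Read 5′ to 3′ on the plus strand of chromosome 1, they join the end of exon 7, 6, 8 or 13 to the start of exon 3, or of exon 10 in the last.
Atp6v1h exons 3 to 7: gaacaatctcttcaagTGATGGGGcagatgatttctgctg
Atp6v1h exons 3 to 6: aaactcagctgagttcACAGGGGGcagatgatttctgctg
Atp6v1h exons 3 to 8: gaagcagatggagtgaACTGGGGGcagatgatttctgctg
Atp6v1h exons 10 to 13: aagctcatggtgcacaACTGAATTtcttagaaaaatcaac

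The circRNA of exons 3 to 7 (chr1:5089009-5101123) had 17 events with BPA and 5 in control, and that of exons 3 to 6 (chr1:5089009-5098133) had 13 with BPA and 5 in control. That of exons 3 to 8 (chr1:5089009-5117487) had 8 with BPA and 0 in control, and that of exons 10 to 13 (chr1:5133084-5150061) had 5 with BPA and 0 in control. These 4 were chosen by their events with BPA, so their direction says nothing further, and a count of 0 in control allows up to 3 events there. Of the other 10, that of exons 3 to 13 had 1 event with BPA and 2 in control, and those of exons 4 to 10, 5 to 8 and 8 to 9 had 0 with BPA and 1 in control each.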

How the data were processed

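The submitters' processing notes name STAR for the mRNA and circRNA libraries, StringTie for the mRNA libraries only, and the builds GRCm38 and mm10, without versions. Read counter, annotation release and circRNA caller: not given in the sources used here. Gene values were deposited as log2 values. After the log and an added 1 were undone, all 22127 genes lay within 0.001 of whole multiples of a single step, 0.962 in the BPA library and 1.04 in the control library, and division by that step gave reads. The circRNA values, deposited as log2 values too, were multiples of 2, and each such step was taken as 1 event. If a step stood for 2 reads, the intervals would be too wide. The authors' deposited p-values are not quoted.

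The log2 ratio used the deposited scaling and a pseudocount of 1 (for circRNA, 0.5 events and the library total). Intervals are exact conditional binomial (Clopper-Pearson, 95%, SciPy 1.17.1), compare 2 libraries and leave out the scaling's error. They were tested on simulated data. PCR reads are not independent molecules, so intervals and floors cover counting error only. Genes needed 10 reads in both libraries together. Lengths, overlaps and coordinates are from GENCODE M21 (GRCm38), which held 99.6% of the gene IDs, and promoters and junctions from RefSeq GRCm38.p6. The members, lists and thresholds were chosen with earlier results of these data known. All members are named, and of each list the 2 highest and 2 lowest genes whose larger count reached 100 reads. Gnptg was named in addition, beside Gnptab. The miRNA table was not used here. Alternatives covered pseudocounts of 0.5 and 5, scaling by library total, TMM (own code) or upper quartile, read minimums, a running median over 501 genes ordered by GC content, and overlaps.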

Additional observations from a re-analysis of the deposited data

How the results depend on the processing

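Every ratio rests on 1 library a group, so differences between cultures unrelated to BPA cannot be told apart from the exposure. No paired analysis was possible because each group had 1 library, and for the same reason no replicate could be left out. Under 11 alternatives of pseudocount, scaling, filter, GC content and overlap, the number of lysosomal genes at least 1.2-fold lower was 0 each time, and 30 of 34 genes were above 0 in each alternative that kept them. Lipa at -0.02 and Tfeb at -0.04 changed sign with the trend on GC content removed, and Gusb and Cd63 were below 0 throughout. Scaling by the library total shifted all ratios by 0.08, with a median of 0.09 over all genes. The medians were then 0.35 over all lysosomal genes, 0.55 for proteases, 0.16 for lipid genes, 0.28 for membrane proteins, 0.24 for the pump and 0.088 for enzyme sorting, each higher by that shift. With the GC trend removed the medians were 0.056 for lipid genes and 0.18 for membrane proteins, and the cause was not tested. Leaving out genes with an overlapping gene left 11 genes at least 1.2-fold higher, of 24, and a protease median of 0.69 over 2 genes, Ctsk and Tpp1, since fewer genes were compared. A minimum of 50 or 1000 reads, which drops Ctsk, gave a protease median of 0.40, below the 0.42 of the glycosidases. The full palindrome in place of the E-box core gave 0 genes with a site. Leaving out same-strand overlaps only, and union exon length for levels, were chosen after seeing the data. With the deposited scaling, the counting intervals of Ctsk, Lipa, Tfeb, Atp6v0e and Atp6v1d spanned equality at their depth. These intervals leave out the scaling's error. The library-total shift of 0.08 is upward and larger than the ratios of Lipa at 0.02, Atp6v0e at 0.04 and Atp6v1d at 0.06. It also brings Gusb to -0.01 and Cd63 to -0.03. The distance of these genes from equality thus depends on the scaling, though none of them changed sign under another scaling.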
